A study of Mus musculus with 12 samples.

Results

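The genes described here encode the subunits of the oxidative phosphorylation system, measured as RNA in endothelial cells sorted from mouse brain. Endothelial cells form the inner wall of blood vessels. They were chosen by symbol, as every gene whose name marks it as a nuclear-encoded subunit of complex I (Nduf), II (Sdh), III (Uqcr), IV (Cox4 to Cox8) or V (Atp5), with a mean normalized count of at least 10 over the 12 samples. Of 84 symbols that matched, 78 met that minimum, out of 12777 genes that met it and 24015 symbols in the table. They comprised 36 genes of complex I, 4 of complex II, 8 of complex III, 13 of complex IV and 17 of complex V. The cells came from wild-type C57BL/6 mice of 2 ages, with 6 old samples at 19 months and 6 young samples at 3 months, and the labels name no treatment. Each sample pooled the cortex and hippocampus of 2 mice, from which endothelial cells were sorted by flow cytometry, so the values average over vessels of both regions and over a pair of animals. Whether any animal entered more than one pool is not stated, so the p-values cover the sample-to-sample spread alone, which may be partly technical.

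Oxidative phosphorylation turns the oxidation of food into ATP in the inner membrane of the mitochondrion. Complexes I and II pass electrons from NADH and succinate to coenzyme Q, complex III hands them on to cytochrome c, and complex IV delivers them to oxygen. Complexes I, III and IV pump protons as they do so, and complex V, the ATP synthase, lets the protons back through a rotating ring of c subunits to make ATP. Endothelial cells are known to draw much of their ATP from glycolysis, while those of the blood-brain barrier are known for a high content of mitochondria. A few subunits of complexes I, III, IV and V are encoded in the mitochondrial genome; of 13 such genes 0 were in the table, and they were not analysed here.

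The depth per sample was between 25809499 and 40393814 reads in genes, and the 78 genes took from 0.63% (young 5) to 1.01% (old 7) of them. All 10 endothelial markers checked were present, with a summed normalized count between 788873 and 1064484 in every sample, and 1 of the 10 (Cdh5) passed as lower in old samples, with 8 below 0 and 4 of these at an unadjusted p under 0.05. Markers of mural cells and astrocytes moved with age. Of 12 mural cell markers (pericytes and smooth muscle), all tested, 0 passed as higher and 2 as lower in old samples and 7 were lower at an unadjusted p under 0.05, with a summed count of 1231 to 12410 in old and 3043 to 19004 in young samples; Abcc9 was at 0 in old 4 and old 7, and Anpep at 0 in old 9. Of 8 astrocyte markers, all tested, 1 passed as higher and 8 had an unadjusted p under 0.05, with a summed count of 6207 to 32399 in old and 1018 to 24768 in young samples and no marker at 0. None passed of the markers tested for neurons (2 of 7 listed), microglia (5 of 6) and oligodendrocytes (5 of 6). The same held for ependyma and choroid plexus (2 of 4) and red cells (1 of 3, with Hbb-b1 and Hba-a1 at 0 throughout). Both tested markers of ependyma and choroid plexus were above 0, at 1.89 and 4.75 on the log2 scale, and Ttr had an unadjusted p under 0.05. The 4 listed had a summed count of 0 to 3547 in old and 11.5 to 1027 in young samples. The slope of values on transcript length was -0.184 in old 7 and -0.273 in old 9 on the log2 scale per doubling of length, against -0.015 to 0.132 in the other samples. The part of these differences in the results was not tested beyond the fits given beside them. In these bulk samples, fewer cells of a type and less RNA per cell cannot be told apart.

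Promoter windows of these genes are shown first because nuclear genes of this system are known to share binding sites for a few factors. Of the 78 genes 65 matched a RefSeq promoter window (GRCm38.p6), which runs from 250 bases before to 50 bases after a transcript start. Searched on both strands, the NRF1 motif (GCGC, any base, TGCGC) was found in 17 of the 71 windows of these genes, 23.9%, against 4.6% of all 32851 windows and 9.75% of the 12334 windows of tested genes. The YY1 motif (AAGATGGC) was in 16.9% of the members' windows, 2.75% of all windows and 4.24% of those of tested genes. The ETS motif bound by GABP (CCGGAAG) was in 22.5%, 8.86% and 16.8%, the ERR motif (TCAAGGTCA) in 2.82%, 0.423% and 0.284%, and the CCAAT box (CCAAT) in 42.3%, 37.4% and 37.5%. Of the 13 genes that had an unadjusted p under 0.05 for age, 11 had a window, and 6 of these held an NRF1, ETS or ERR match. Such matches also lay in windows of members with a larger p, such as Sdha, Cox6a1 and Uqcrc1. The count of 6 pools 3 motifs and counts genes, so it cannot be set beside the window shares of single motifs above. It serves to choose windows to show, and its relation to age was not tested. The windows of 4 of these 6 follow, 2 genes of complex I and 2 of the genes for the c subunit of ATP synthase, with every match to any of the 5 motifs in capitals.
Ndufb4, chr16:37654319-37654618, minus strand: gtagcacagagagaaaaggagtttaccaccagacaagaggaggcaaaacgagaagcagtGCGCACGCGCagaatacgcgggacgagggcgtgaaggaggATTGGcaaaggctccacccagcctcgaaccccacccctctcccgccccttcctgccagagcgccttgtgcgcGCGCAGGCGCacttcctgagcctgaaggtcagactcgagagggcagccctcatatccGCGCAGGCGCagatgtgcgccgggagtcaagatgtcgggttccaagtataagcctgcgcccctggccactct
Ndufs3, chr2:90904672-90904971, minus strand: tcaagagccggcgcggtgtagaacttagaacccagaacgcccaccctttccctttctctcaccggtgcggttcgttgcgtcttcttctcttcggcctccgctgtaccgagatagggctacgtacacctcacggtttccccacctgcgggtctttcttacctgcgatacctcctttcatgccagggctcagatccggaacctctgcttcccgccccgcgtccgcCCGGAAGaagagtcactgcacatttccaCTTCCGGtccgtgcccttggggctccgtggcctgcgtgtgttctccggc
Atp5g2, chr15:102670998-102671297, minus strand: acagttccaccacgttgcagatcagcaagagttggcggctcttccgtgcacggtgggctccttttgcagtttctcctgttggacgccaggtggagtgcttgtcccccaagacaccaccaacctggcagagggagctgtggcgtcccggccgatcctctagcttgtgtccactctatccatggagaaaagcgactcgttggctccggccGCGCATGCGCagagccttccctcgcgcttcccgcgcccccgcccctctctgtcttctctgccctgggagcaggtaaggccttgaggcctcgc
Atp5g3, chr2:73911277-73911576, minus strand: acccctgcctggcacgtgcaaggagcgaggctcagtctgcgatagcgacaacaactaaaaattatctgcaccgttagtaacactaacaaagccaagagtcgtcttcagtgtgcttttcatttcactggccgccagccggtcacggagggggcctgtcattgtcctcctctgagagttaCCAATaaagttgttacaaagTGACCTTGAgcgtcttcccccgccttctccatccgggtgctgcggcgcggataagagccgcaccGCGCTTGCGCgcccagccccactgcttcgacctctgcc
The Ndufb4 window held 3 NRF1 matches and that of Ndufs3 a pair of ETS matches, one on each strand. Among the c subunit genes, Atp5g2 and Atp5g3 each held 1 NRF1 match, and Atp5g3 also held an ERR match, while the window of Atp5g1 held none of these and 5 CCAAT boxes. A match is a run of letters and does not show that a factor was bound.

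No gene of the 78 passed the threshold between old and young samples. The difference is given as a log2 fold, the mean of log2(normalized count + 1) in old minus that in young samples, tested with limma and adjusted over all 12777 genes with a threshold of 0.05. In that test 0 of the 78 genes were called, against 6.94% of all genes tested. At an unadjusted p under 0.05 there were 13 genes, 13 above and 0 below 0, against 23.8% of all genes (11.7% above and 12.1% below). On the recovered reads edgeR called 1 of the 78 (Cox7a2l, higher) against 6.05% of the genes it tested (3.47% higher and 2.58% lower). DESeq2 called 4 (Cox7a2l, Atp5g1, Ndufc2 and Ndufs3, all higher) against 10.2% (5.43% higher and 4.81% lower). Every one of the 78 overlapped between the ages, where 4.29% of all genes did not (2.18% with old samples all higher and 2.11% all lower).

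The folds lay mostly on one side of 0. Of the 78 genes, 71 had a log2 fold above 0, against 48.9% of all genes tested, with a median of 0.19 against -0.01. All 6 old samples lay above the young median for 18 of the 78 genes, 23.1%, against 12.6% of all genes, and all 6 lay below it for 1 gene, Atp5b, 1.28% against 12.2%. By complex the median log2 fold was 0.20 for complex I, 0.10 for II, 0.09 for III, 0.30 for IV and 0.17 for V. The genes share the same 12 libraries and are not replicates of an age.

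**Figure D1:**
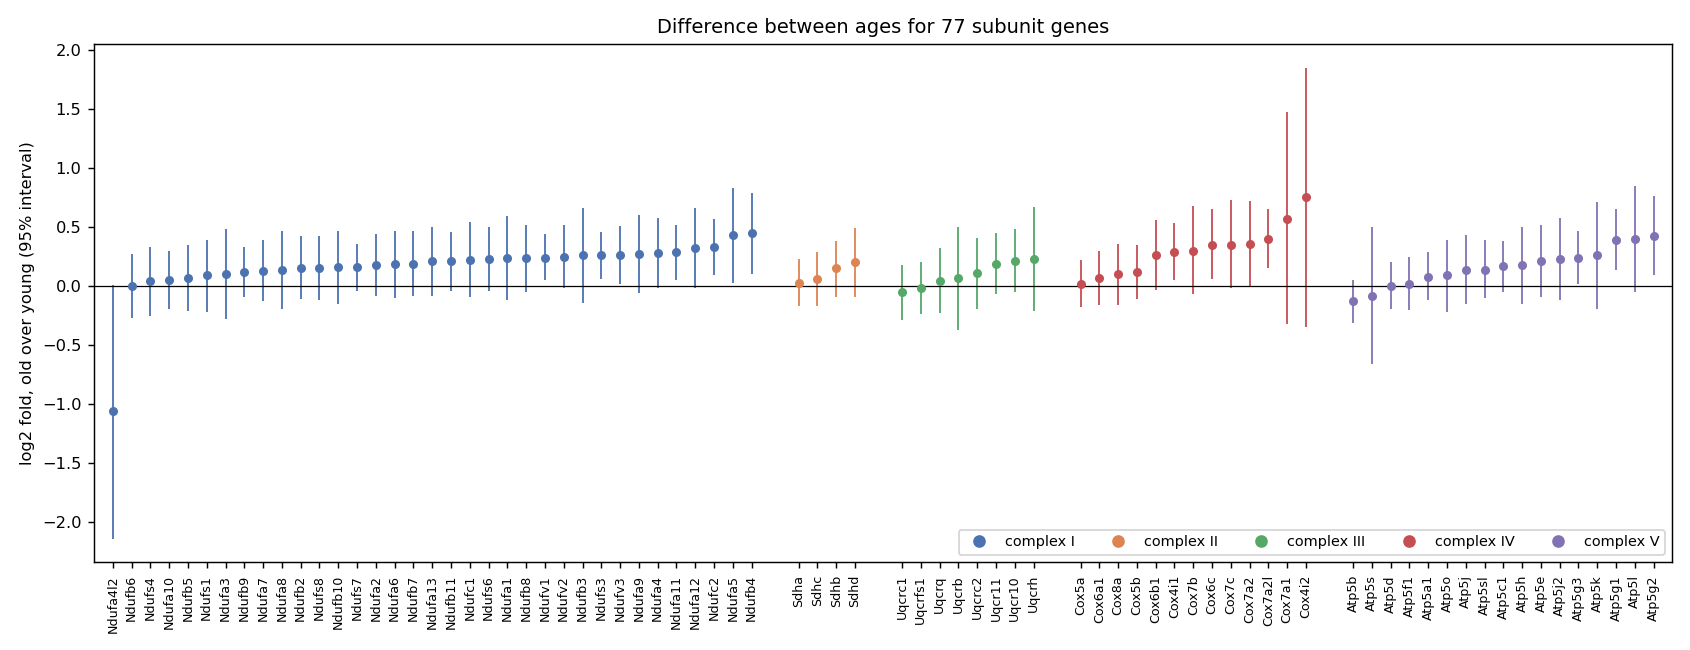
Log2 fold of old over young samples for 77 of the 78 genes, grouped by complex and ordered by fold, with points for the limma estimate and lines for its 95% confidence interval. Most points lie slightly above 0, with 71 above it, and the wide intervals belong to Ndufa4l2, Cox7a1 and Cox4i2, the genes of lowest level.

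The spread between samples was compared with the difference between ages. Each gene was centred on its own mean over the 12 samples, and the centred log2 values were averaged over the genes of a complex. For all 78 genes this average was -0.36 in young 5, -0.23 in young 2, -0.16 in young 4, 0.03 in young 1, 0.10 in young 3 and 0.10 in young 9. In old samples it was -0.09 in old 1, -0.03 in old 3, 0.03 in old 2, 0.03 in old 4, 0.28 in old 9 and 0.31 in old 7. Young 3 and young 9 thus lay above 4 of the 6 old samples, and the SD within an age was 0.18 against a difference of 0.18 between the age means. For complex IV the difference was 0.30 against an SD within an age of 0.20, and for the other 4 complexes it was 0.10 to 0.16 against 0.16 to 0.20. The 2 ends were held by few samples. Old 7 or old 9 had the highest value for 56 of the 78 genes, 71.8% against 29.3% of all genes, and young 5 had the lowest for 45, 57.7% against 9.74%.

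**Figure D2:**
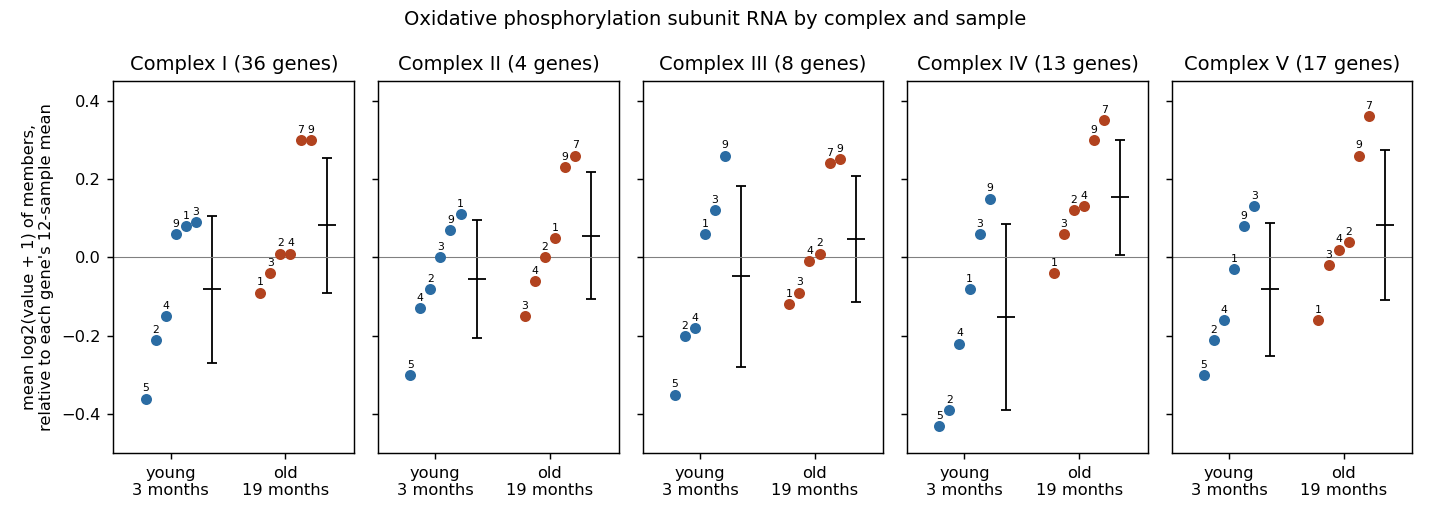
Mean centred log2(normalized count + 1) of the genes of each complex in every sample, relative to each gene's mean over the 12 samples. Points are samples with their title number, and bars give the mean and SD of each age (n = 6). The ages overlap in all 5 panels, with young 5 lowest in each and old 7 and old 9 the highest old samples.

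Without old 7, old 9 and young 9, the samples whose values fell most with transcript GC content, the median log2 fold of the 78 genes was 0.12, with 62 above 0. Removing a trend in transcript GC content and length from every sample gave 0.01, with 43 above 0, where the median of all genes was -0.06. The transcripts of these genes are short, with a median length of 759 bases against 2258 for all genes tested (GENCODE vM21). Adding the mural marker score to the fit gave a median of 0.09, and adding the astrocyte marker score gave 0.11.

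Complex I, which oxidizes NADH, is built from a small set of core subunits and many accessory subunits around them. Some of the core subunits carry the flavin and iron-sulfur clusters. Of the 36 genes of complex I 0 passed in either direction, where 3.73% of all genes passed as higher and 3.21% as lower. Unadjusted p was under 0.05 for 7, all above 0, against 23.8% of all genes (11.7% above 0). Of the 36, edgeR called 0 and DESeq2 2, against 6.05% and 10.2% of the genes they tested. The 7 core genes had a median log2 fold of 0.16 and the 29 accessory genes 0.21.

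Among the core genes, Ndufs3, which lies in the arm that faces the matrix, had the smallest p. Its normalized count ran from 1679 to 2125 in old samples (median 1860) and from 1467 to 1818 in young samples (median 1557). Each old sample lay above the young median, and 4 of 6 lay above the highest young sample, young 1. The means were 1904 ± 171 and 1585 ± 130 (SD, n = 6 each), a log2 fold of 0.26 ± 0.09 (SE) with a limma adjusted p of 0.103. Ndufv1, which binds NADH and the flavin, ran from 4399 to 5505 in old samples (median 4958) and from 3698 to 4865 in young samples (median 3950), with a log2 fold of 0.24 (adjusted p = 0.122). Its lowest old sample lay above the young median.

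The other core genes described had an unadjusted p above 0.05. Ndufv2, an iron-sulfur subunit beside Ndufv1, had a log2 fold of 0.25 (adjusted p = 0.238), and Ndufs7 and Ndufs8, which carry the last clusters before coenzyme Q, had 0.16 and 0.15 (adjusted p = 0.303 and 0.491). Ndufs1, the largest core subunit, had 0.09, with 2564 in old 9 and 2414 in young 9 as its highest values. Old and young samples were mixed throughout its range.

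Of the accessory genes, Ndufc2, in the membrane arm, had the smallest p of complex I. It ran from 2066 to 3180 in old samples (median 2630) and from 1824 to 2315 in young samples (median 2066), with 5 of 6 old samples above every young one. Its means were 2608 ± 396 and 2062 ± 198, a log2 fold of 0.33 ± 0.11 (SE, limma adjusted p = 0.0877). Removing the GC and length trend gave 0.13, and gave 0.11 for Ndufs3. Ndufb4, also of the membrane arm, had the highest log2 fold of the complex, 0.45 ± 0.16 (adjusted p = 0.105). Its counts ran from 632 to 1103 in old samples (median 827) and from 523 to 767 in young samples (median 603), and old 7 and old 9 were the highest, at 1103 and 1058. Without old 7, old 9 and young 9 its log2 fold was 0.29. Ndufa5 (0.43), Ndufa11 (0.29) and Ndufv3 (0.26) were the other accessory genes with an unadjusted p under 0.05, with adjusted p from 0.13 to 0.182. Ndufb6 had a log2 fold of 0.00 to 2 decimals, at 1031 ± 117 in old and 1037 ± 164 in young samples.

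Ndufs5, an accessory subunit of complex I, was listed at 0 in all 12 samples and is the single complex I symbol outside the minimum. No fold is given for it.

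Complex II, which oxidizes succinate and is also an enzyme of the tricarboxylic acid cycle, is the single complex with no mitochondrially encoded subunit. All 4 of its genes were measured, and 0 passed in limma, edgeR or DESeq2. An unadjusted p under 0.05 was found for 0, against 23.8% of all genes. Sdha, the flavoprotein that oxidizes succinate, had normalized counts of 13782 ± 1761 in old samples and 13442 ± 958 in young ones, a log2 fold of 0.03 with a 95% interval of -0.17 to 0.23. Its values ran from 12091 to 16902 in old samples and from 12543 to 15038 in young samples, the highest in old 7. The iron-sulfur subunit Sdhb had a log2 fold of 0.15, the membrane anchor Sdhc 0.06 and the membrane anchor Sdhd 0.20 (adjusted p = 0.439, 0.766 and 0.381). Sdhd ran from 2749 to 4447 in old samples (median 3679) and from 2499 to 3825 in young samples (median 3261). All 4 genes overlapped between the ages.

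Complex III passes electrons from reduced coenzyme Q to cytochrome c. Of its 8 genes 0 passed in limma, edgeR or DESeq2, and 0 had an unadjusted p under 0.05. Its median log2 fold, 0.09, was the lowest of the 5 complexes in the reported fit, next to 0.10 for complex II, and the order of these 2 changed with the setting (0.12 for III and 0.11 for II in edgeR). The core proteins Uqcrc1 and Uqcrc2 had log2 folds of -0.05 and 0.11, and the Rieske iron-sulfur protein Uqcrfs1 had -0.02 (adjusted p = 0.802, 0.665 and 0.932). Uqcrc1 ran from 8860 to 11017 in old samples (median 9249) and from 7766 to 12529 in young samples (median 9974), so the young samples spanned the whole old range.

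The small subunits of complex III ranged from 0.04 for Uqcrq to 0.23 for Uqcrh. Uqcr10 had a log2 fold of 0.21 and Uqcr11 0.19, with adjusted p of 0.311 and 0.359, and each old value of Uqcr11 lay above the young median. Uqcrh, the hinge protein that helps cytochrome c dock, had 0.23 ± 0.21 (SE), with 2641 in young 9 and 2627 in old 7 against at most 2119 in the other samples. Uqcrb, which lies near the coenzyme Q site, had the same pattern, with 6964 in young 9, 6705 in old 7 and 6433 in old 9 against at most 4311 elsewhere. These 2 genes were high in the samples with a GC trend at both ages, and their log2 folds (0.07 for Uqcrb) were small beside that spread.

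Complex IV, cytochrome c oxidase, had the highest median log2 fold, 0.30, in the reported fit and in all 29 alternative settings. All 13 of its genes had a log2 fold above 0, against 48.9% of all genes tested. In limma 0 passed, against 6.94% of all genes, and 3 had an unadjusted p under 0.05, against 23.8%. Of the 13, edgeR and DESeq2 called 1 each, against 6.05% and 10.2% of the genes they tested. The median was 0.21 without old 7, old 9 and young 9, and 0.10 with the GC and length trend removed.

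Cox7a2l, a protein that joins complexes III and IV into supercomplexes and of which C57BL/6 mice are known to carry a shortened form, lay just outside the threshold. It ran from 1751 to 2539 in old samples (median 2185) and from 1449 to 1889 in young samples (median 1544), with 4 of 6 old samples above every young one. Old 1 and old 3, at 1751 and 1782, lay among the young samples. The means were 2144 ± 324 and 1614 ± 184, a log2 fold of 0.40 ± 0.12 (SE), or 1.32-fold with a 95% interval of 1.11 to 1.57. The adjusted p was 0.0512 in limma, 0.0475 in edgeR and 0.0144 in DESeq2, and over the settings it passed in 10 of 29. Without old 7, old 9 and young 9 the log2 fold was 0.29 (adjusted p = 0.173). It was 0.26 with the GC and length trend removed (adjusted p = 0.151) and 0.23 with the mural score in the fit (adjusted p = 0.475).

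The common forms of the other subunits of complex IV followed with smaller folds. Cox4i1, the usual form of the subunit that responds to ATP, ran from 7943 to 10482 in old samples (median 8872) and from 6133 to 9381 in young samples (median 7106), a log2 fold of 0.29 (adjusted p = 0.135). Each old sample lay above the young median, and 1 above the highest young sample, young 3. Cox6c had a log2 fold of 0.35 (adjusted p = 0.136), Cox7a2 0.36, Cox7c 0.35, Cox7b 0.30 and Cox6b1, which helps the enzyme form dimers, 0.26 (adjusted p = 0.216, 0.235, 0.313 and 0.261). Cox5a and Cox6a1 had 0.02 and 0.07, and Cox5b and Cox8a 0.12 and 0.10. Those with larger folds and those near 0 are both peripheral subunits around the mitochondrially encoded core.

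Isoforms that replace a common subunit in particular tissues were at low levels. Cox4i2, a form known from lung and pericytes and induced by low oxygen, and Cox7a1, the form of heart and skeletal muscle, were members of the list. Ndufa4l2, a form of Ndufa4 that is also known from brain pericytes and from low oxygen, was the third; Ndufa4 itself is named for complex I but is now placed in complex IV. Per length of transcript, Cox4i2 made up 0.11% to 0.835% of the pair with Cox4i1 over the 12 samples, Cox7a1 0.96% to 3.23% of the pair with Cox7a2, and Ndufa4l2 0.138% to 2.93% of the pair with Ndufa4. The common form thus made up nearly all of each pair in every sample.

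None of these 3 isoforms passed. Ndufa4l2 was the gene with the lowest fold of all 78. It ran from 12.8 to 95.3 in old samples (median 29.5) and from 29.8 to 169 in young samples (median 65), a log2 fold of -1.06 with a 95% interval of -2.14 to 0.01 (adjusted p = 0.215). The samples highest in Ndufa4l2 at each age, old 3 (95.3) and young 4 (169), were also highest in summed mural markers at each age, 12410 and 19004. Once the mural score was in the fit its log2 fold was 0.04. Cox4i2 ran from 23.0 to 67.2 in old samples and from 7.46 to 60.5 in young samples, again highest in old 3 and young 4, with a log2 fold of 0.75 (95% interval -0.35 to 1.85, adjusted p = 0.394). That of Cox4i2 was -0.24 with the astrocyte score in the fit, 1.47 with the mural score and 0.45 without young 5. Cox7a1 ran from 30.6 to 67.6 and from 12.1 to 63.1, with a log2 fold of 0.57 (-0.32 to 1.47, adjusted p = 0.426), which was 0.20 with the mural and 0.23 with the astrocyte score in the fit. It was highest in old 7 and young 9 and lowest in young 4, so its highest samples were not those of Ndufa4l2 and Cox4i2. Below their highest samples, Ndufa4l2 and Cox4i2 differed in order, with young 3 at 101 and 11.5 and old 9 at 12.8 and 43.7.

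**Figure D3:**
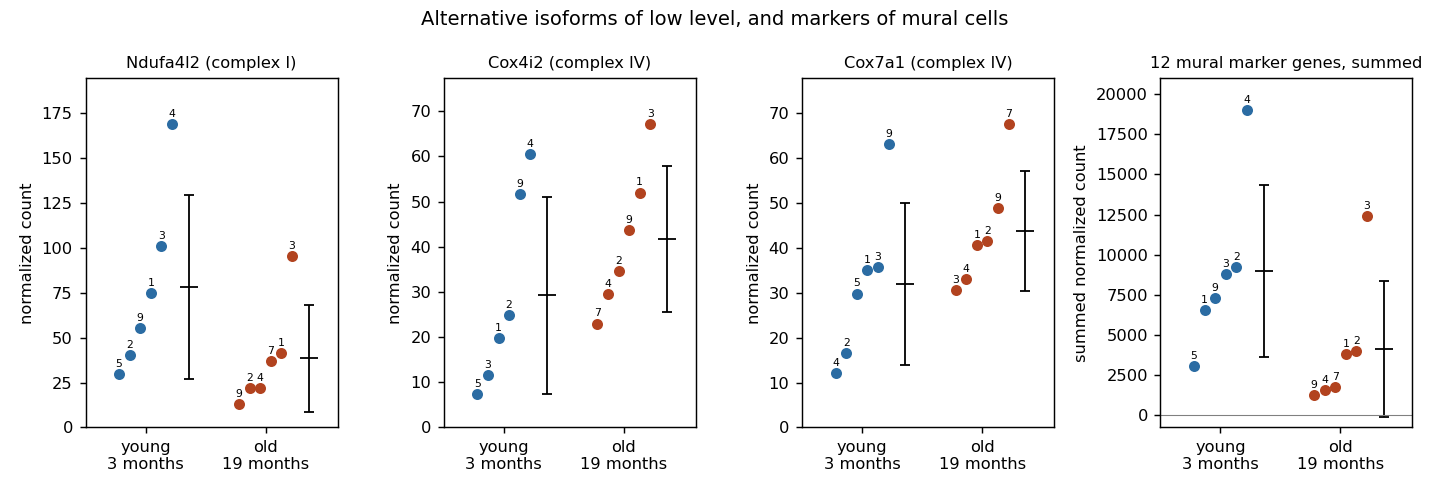
Normalized counts of Ndufa4l2, Cox4i2 and Cox7a1, and the summed normalized count of 12 mural marker genes, in each sample. Points are samples with their title number, and bars give the mean and SD of each age (n = 6); young 4 and old 3 are highest of their age for Ndufa4l2, Cox4i2 and the mural markers.

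Cox4i2 was the gene just inside the minimum, with a mean of 35.5 over the 12 samples, and Cox6b2, a form known from testis, just outside, with 9.05. The other symbols outside it were Cox8b, with a mean of 1.98, Cox7b2, with 0.51, and Cox6a2 and Cox8c, both with 0 reads in every sample. Cox8b and Cox6a2 are forms of heart and skeletal muscle.

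Complex V, the ATP synthase, joins a catalytic head (F1) to a membrane part (Fo) through stalks. Of its 17 genes 0 passed in limma, and edgeR called 0 and DESeq2 1, against 6.05% and 10.2% of the genes they tested. An unadjusted p under 0.05 in limma was found for 3 of the 17, against 23.8% of all genes. The 3 were the genes for the c subunit, Atp5g1, Atp5g2 and Atp5g3, which are known to encode the same mature protein behind different import signals.

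Atp5g1 ran from 1841 to 2597 in old samples (median 2164) and from 1339 to 2093 in young samples (median 1662), with 4 of 6 old samples above every young one. Its means were 2202 ± 295 and 1682 ± 247, a log2 fold of 0.39 ± 0.12 (SE, adjusted p = 0.0617). Atp5g2 ran from 768 to 1241 in old samples (median 1085) and from 635 to 1123 in young samples (median 707), a log2 fold of 0.42 (adjusted p = 0.119), and 1 young sample, young 3, lay apart at 1123. Atp5g3 ran from 2504 to 3536 in old samples (median 3222) and from 2307 to 3096 in young samples (median 2608), a log2 fold of 0.24 (adjusted p = 0.181). Old 1 was the lowest old sample for each of the 3 genes.

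The 5 head genes ranged from -0.13 to 0.21. Atp5b, the catalytic beta subunit and the gene with the highest mean count of the 78 (not per length), was the one whose old samples all lay below the young median. It ran from 31435 to 34649 in old samples (median 33337) and from 32669 to 39000 in young samples (median 37266), a log2 fold of -0.13 with a 95% interval of -0.31 to 0.05 (adjusted p = 0.35). Of the young samples 4 lay above every old one, and young 5 and young 9 lay among the old samples. The alpha subunit Atp5a1 had a log2 fold of 0.08, the central shaft Atp5c1 0.17, Atp5d 0.00 and Atp5e 0.21, with adjusted p from 0.332 to 0.983. The head genes had a median log2 fold of 0.08 and the c subunit genes 0.39.

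Within each sample, the c subunit genes were set against the head genes, a contrast chosen after the values were seen and given without a test. The mean log2 value of the 3 c subunit genes minus that of the 5 head genes had a mean of -2.05 ± 0.11 over the old samples and -2.33 ± 0.09 over the young ones (SD, n = 6 each). It ran from -2.23 to -1.94 in old and from -2.44 to -2.20 in young samples, and 5 of 6 old samples lay above every young one, with old 1 the exception. This difference of 0.29 is between groups of genes within a sample. The part in it of GC content, transcript length or cell mixture was not tested. With the GC and length trend removed, the median log2 fold was 0.23 for the c subunit genes and 0.01 for the head genes. Without old 7, old 9 and young 9 these medians were 0.30 and 0.01.

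The stalk and membrane subunits lay in between. The 7 genes had a median log2 fold of 0.18, from 0.02 for the peripheral stalk subunit Atp5f1 to 0.40 for Atp5l, which lies where ATP synthases pair up. All 7 were highest in old 7 or old 9. Atp5l ran from 348 to 887 in old samples (median 535) and from 313 to 527 in young samples (median 405), and Atp5j2 reached 3537 in old 7 against 2341 in the next old sample, old 9. Their adjusted p were 0.267 and 0.41. Atp5s and Atp5sl, which match by symbol, are named Dmac2l and Dmac2 by RefSeq and are not counted among the subunits by their newer names; they had log2 folds of -0.08 and 0.14.

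**Figure D4:**
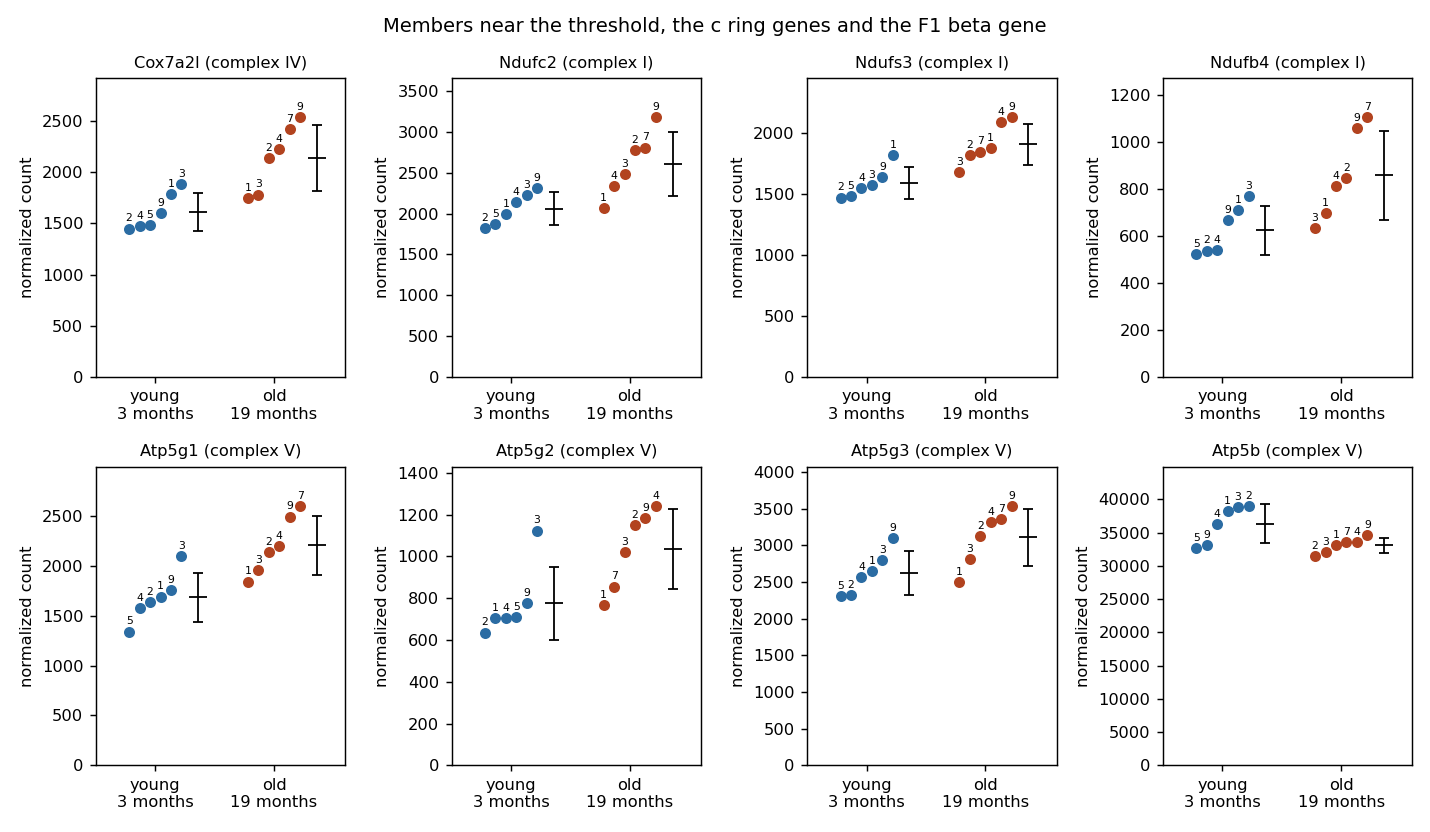
Normalized counts in each sample for Cox7a2l, Ndufc2, Ndufs3, Ndufb4, the 3 c subunit genes of ATP synthase and the catalytic subunit gene Atp5b, with axes from 0. Points are samples with their title number, and bars give the mean and SD of each age (n = 6); the ages overlap in every panel, old values lie mostly higher in the first 7, and the old values of Atp5b all lie below the young median.

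The medians moved with the setting. The median of complex I ran from 0.03 to 0.24 over the 29 settings, that of II from -0.02 to 0.20, that of III from -0.08 to 0.19, that of IV from 0.10 to 0.39 and that of V from 0.01 to 0.24. The lowest value of each came with the GC and length trend removed.

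**Figure D5:**
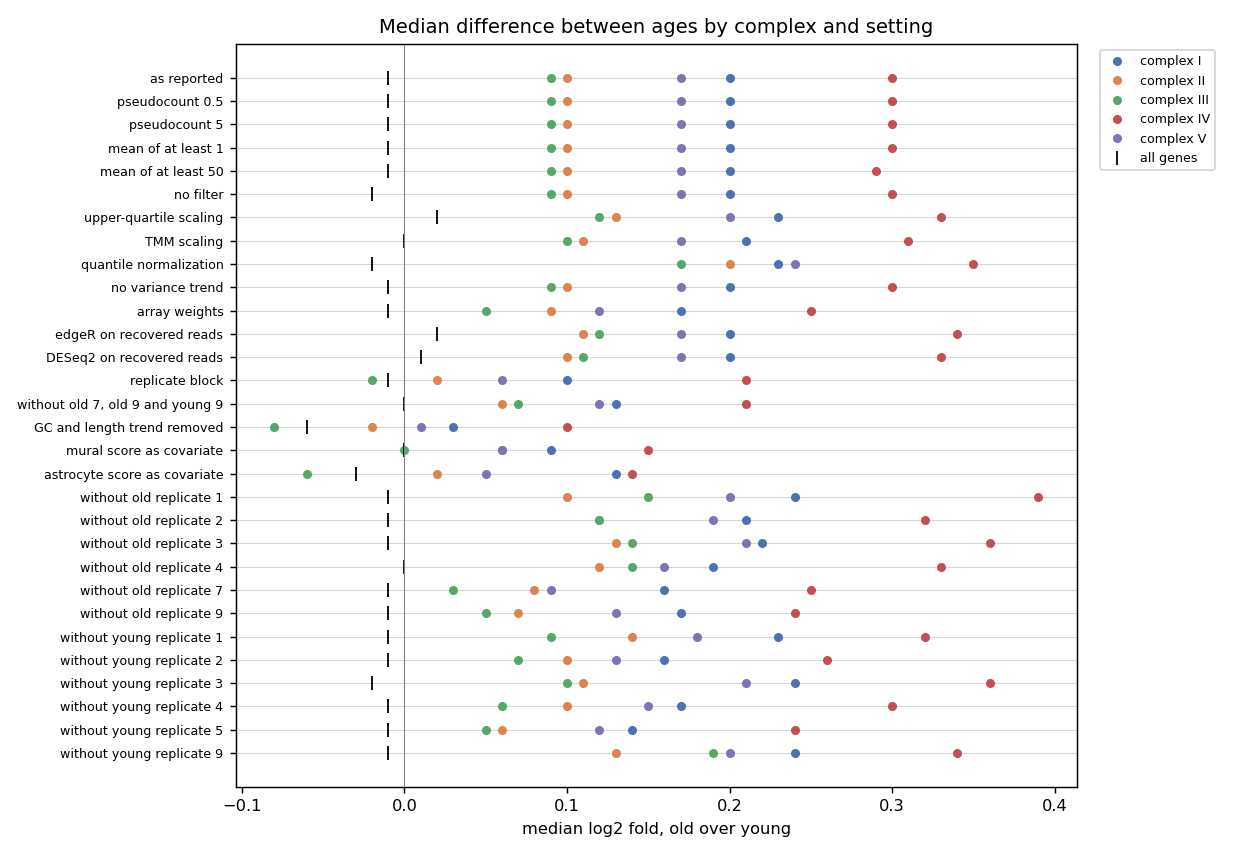
Median log2 fold of old over young samples for each complex, and for all genes tested (black ticks), in the reported fit and in each of 29 alternative settings. Complex IV is farthest right in every row, between 0.10 and 0.39, and all 5 complexes move toward the median of all genes when the GC and length trend is removed or when marker scores are covariates.

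The genes that assemble the complexes and feed them were taken from lists that were also chosen with earlier results of these data known. Of 44 tested assembly factors of all 5 complexes 0 passed in limma, edgeR or DESeq2, which called 6.94%, 6.05% and 10.2% of all genes they tested. At an unadjusted p under 0.05 in limma there were 3, against 23.8% of all genes. The median log2 fold of the 44 was 0.08. By complex the medians were 0.01 for I (14 genes), 0.02 for II (2), 0.03 for III (5), 0.12 for IV (20) and 0.20 for V (3). The smallest p in each belonged to Ndufaf3 (0.25, adjusted p = 0.199), Sdhaf2 (-0.11, 0.583), Ttc19 (-0.26, 0.311), Surf1 (0.26, 0.157) and Tmem70 (0.20, 0.261). Of 6 subunits and partners that the symbol rule leaves out, among them cytochrome c (Cycs) and cytochrome c1 (Cyc1), 0 passed. At an unadjusted p under 0.05 there was 1, against 23.8% of all genes. It was Atpif1, an inhibitor of ATP synthase (0.35, adjusted p = 0.159). Of 12 genes for coenzyme Q synthesis (smallest p for Adck3, log2 fold 0.74, adjusted p = 0.17) and 6 for carriers of adenine nucleotides and phosphate and outer membrane channels (Slc25a4, 0.25, adjusted p = 0.115) 0 passed in limma, edgeR or DESeq2, with 1 each at an unadjusted p under 0.05.

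In the tricarboxylic acid cycle, which supplies the electrons, 1 of 15 genes rose and 0 fell in limma, against 3.73% and 3.21% of all genes. At an unadjusted p under 0.05 there was 1 of the 15, against 23.8% of all genes, and the median log2 fold was 0.06. Suclg2, the beta subunit of the succinyl-CoA synthetase that makes GTP, ran from 1614 to 2107 in old samples (median 1829) and from 1078 to 1437 in young samples (median 1295). Every old sample lay above every young one, as for 2.18% of all genes. The means were 1854 ± 174 and 1290 ± 138, a log2 fold of 0.52 ± 0.10 (SE, limma adjusted p = 0.00658, edgeR 0.00628). The call held in 27 of 29 settings and was lost when the mural or the astrocyte score was added (adjusted p = 0.0756 and 0.139).

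Among regulators of mitochondrial biogenesis 1 of 13 rose and 0 fell in limma, against 3.73% and 3.21% of all genes. At an unadjusted p under 0.05, 1 of the 13 lay above 0 and 4 below, against 11.7% and 12.1% of all genes. The median log2 fold of the 13 was 0.05. In edgeR 0 were called, and DESeq2 called 1 higher and 1 lower, against 5.43% and 4.81% of the genes it tested. Ppargc1a, the coactivator PGC-1alpha that drives many nuclear genes of this system, ran from 85.6 to 224 in old samples (median 147) and from 29.7 to 102 in young samples (median 59.7), with 5 of 6 old samples above every young one. The means were 148 ± 50.2 and 64.4 ± 30.7, a log2 fold of 1.27 ± 0.35 (SE, adjusted p = 0.04). The call ended in edgeR (adjusted p = 0.063) and in 15 of 29 settings in all, among them the removal of old 1, old 2, old 4, old 7, young 1, young 3, young 4 or young 5 alone (adjusted p from 0.0629 to 0.0892). Old 9, high for the subunits, was the lowest old sample for Ppargc1a, at 85.6, and old 2 the highest, at 224. A relation between Ppargc1a and the subunits across the samples was not tested.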

How the data were processed

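The deposited signal is a normalized count for each of 24015 gene symbols in the 12 samples. SMART-seq v4 cDNA and Nextera XT libraries were used, per the labels' protocols. Without giving roles, the submitters' processing notes list STAR 2.4.2a, FastQC 0.11.2, R 3.2.2, Cuffdiff 2.2.1 and mm9. What counted the reads, and on which annotation, is not given in the sources used here. Each column held whole multiples of one step, so reads were recovered by division (100% of values whole within 0.001). Many of these genes have processed pseudogenes, between which reads may have been split.

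Genes with a mean of at least 10 were put on log2(value + 1) and compared with limma 3.58.1 in R 4.3.3 (age as the only term, variances moderated with a trend, Benjamini-Hochberg over 12777 genes, threshold 0.05). On this scale the added 1 shrinks folds of low genes, and a fold compares means of log values, so it can be smaller or larger than the ratio of mean counts. Alternatives were edgeR 4.0.16 (887 genes called by limma, 761 by edgeR) and DESeq2 1.42.0 on recovered reads, other pseudocounts, filters, scalings, weights, covariates, a number block and left-out samples. The limma script was tested on simulated data. Transcript length and GC content are means over protein-coding GENCODE vM21 transcripts, found for 78 of the 78 genes and 12688 of the 12777. Promoter sequences are RefSeq's. Replicates were checked for duplicates, and every pair within an age differed by more than counting noise (lowest chi-square per degree of freedom 34). Reads carry no molecular identifiers. The members, lists and tests were chosen with earlier results of these data known. The genes named were those past the threshold, the 3 of smallest p per complex (all of complex II), core subunits, isoform pairs, those at the minimum and, per supporting list, up to 3 past the threshold or that of smallest p; any others were named after their values were seen. One gene is in all counts and medians but is not reported here by itself.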

Additional observations from a re-analysis of the deposited data

Results flagged for a closer look

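Of 78 sets of 6 values (an age, for a named gene or a complex average), 6 held a single sample far from the others of its age, where about 3.9 would be flagged by chance. Young 3 stood apart for Atp5g2, at 1123 against 777 for the next young sample, and for Cox8a, at 4315 against 3390. Young 9 stood apart for Uqcrc2, the core protein of complex III, at 5715 against 4403, and old 9 for the complex I core gene Ndufs8, at 3276 against 2426. Old 1 stood apart for Uqcrc1, at 11017 against 9528. Old 3 stood apart for the isoform Ndufa4l2, at 95.3 against 41.5 in the next old sample. Without young 3 the log2 fold of Atp5g2 was 0.54, and its limma adjusted p was 0.0444. That was the 1 setting of 29 in which it passed. Leaving out any 1 sample gave 0.37 to 0.54, with a limma adjusted p from 0.0444 to 0.219.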

How the results depend on the processing

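Of 29 settings, 10 took at least 1 of the 78 genes past the threshold. The count was 1 with a pseudocount of 5, a mean of at least 50, upper-quartile or TMM scaling and edgeR, 2 with quantile normalization and 4 with DESeq2, and ran from 0 to 4 leaving out 1 sample (3 without old 1, 1 without old 3, 4 without young 3). By complex, DESeq2 called 2 in I, 1 in IV and 1 in V; quantile normalization called 2 in IV and the other 5 settings 1 each in IV. Leaving out 1 sample gave 0 to 1 in I, 0 to 2 in IV and 0 to 2 in V. Settings that called 1 of the 78 called from 6.05% (edgeR) to 7.88% (mean of at least 50) of all genes. The share of all genes called was 5.87% with quantile normalization, 10.2% with DESeq2, 6.31% without old 1 and 5.06% without young 3. The median of complex IV moved beyond the SD between samples once, to 0.10 with the GC and length trend removed. Over all genes 887 passed, against 1380 with array weights, 1408 with DESeq2, 256 and 230 with the mural and astrocyte covariates, and 554 (without young 4) to 1227 (without young 9) leaving out 1 sample. Title numbers are shared by 10 samples, and the labels do not say what they mark. Over all genes, the deviations of same-numbered samples had correlations from -0.16 to 0.0983. Old 9 and young 9 both had values that fell with GC content (-0.272 and -0.18 on the log2 scale per 10 points), as did old 7 (-0.131). Whether a shared number marks a shared batch was not tested. With the replicate block 610 genes passed, against 472 in those 10 samples without it, and 0 of the 78 in either.

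Log2 folds of named genes changed sign in 39 fits. With the GC and length trend removed these were Cox6a1 (-0.12), Cox8a (-0.10), Ndufs1 (-0.06), Ndufs7 (0.00), Ndufs8 (-0.02), Sdha (-0.04), Sdhc (-0.05), Uqcr11 (-0.01) and Uqcrc2 (-0.03). With the mural covariate they were Ndufa4l2 (0.04), Ndufs1 (-0.04), Sdha (-0.05), Uqcrc2 (-0.05) and Uqcrfs1 (0.02), and with the astrocyte covariate Cox4i2 (-0.24), Ndufs1 (-0.15), Sdha (-0.02), Sdhc (-0.03), Uqcrc2 (-0.09) and Uqcrh (-0.14). Without old 7, old 9 and young 9 they were Atp5a1 (0.00), Sdha (-0.06), Uqcrc2 (-0.02) and Uqcrfs1 (0.05), and with the replicate block Sdha (-0.05), Sdhc (-0.01) and Uqcrc2 (-0.01). Quantile normalization gave Uqcrc1 0.08 and Uqcrfs1 0.03, array weights Sdha -0.01 and Uqcrfs1 0.01, and upper-quartile scaling Uqcrfs1 0.01. Leaving out 1 sample, Ndufs1 ran from -0.01 to 0.18, Sdha from -0.03 to 0.07, Sdhc from -0.01 to 0.10, Uqcrc1 from -0.12 to 0.02 and Uqcrfs1 from -0.07 to 0.03. The cause was not tested.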

Other observations

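Among the 78 genes the log2 fold was weakly related to transcript length (Pearson r = -0.21, Spearman rho = -0.26, across genes of the same 12 libraries, which are not independent replicates), against -0.12 and -0.24 across 12688 genes. The 39 members at or under the median length had a median log2 fold of 0.21, and the 39 longer ones 0.15; with the GC and length trend removed both had 0.01. Across the members, the deviation of old 7 was more closely related to GC content (r = -0.40) than to length (r = -0.26), and that of old 9 likewise (r = -0.31 and -0.13). Across the 12688 genes the order was the other way, with r = -0.04 for GC content and -0.16 for length in old 7, and -0.13 and -0.25 in old 9.

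The NRF1 motif was found in 7 of 33 promoter windows of complex I, 2 of 3 of complex II, 1 of 5 of complex III, 1 of 10 of complex IV and 6 of 20 of complex V, and the YY1 motif in 7 windows of complex I, 5 of complex V and 0 of the other 3 complexes. Of the 13 regulators 4 lay at an unadjusted p under 0.05 with a log2 fold below 0, against 12.1% of all genes. As lower in old samples, 0 passed the threshold in limma and edgeR, and DESeq2 called 1. The 4 were named after their values were seen. They were Ppargc1b (-2.77, adjusted p = 0.107), Pprc1 (-0.36, 0.142), Gabpa (-0.25, 0.113) and Gabpb1 (-0.21, 0.18), the last 2 being the subunits of GABP.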
